A study of Mus musculus with 6 samples.

Results

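The 4 apolipoprotein genes Apoa1, Apoa2, Apoe and Apoh gave 5080 tags of 5'-monophosphate RNA ends over 6 mouse tissue libraries, 3460 of them in liver. The 4 genes were chosen by their tag level in liver, as earlier results of these data had shown it. Each gene was delimited by a fixed window on its strand: chr9:46036001-46039000 plus for Apoa1, chr1:173154001-173157000 plus for Apoa2, chr7:20280001-20286000 minus for Apoe and chr11:108256001-108276000 plus for Apoh (build mm9). By comparison, 79112 strand-specific windows of 2 kb held at least 1 tag somewhere in the series. Levels in liver and in the other tissues are therefore given as a description, with no test. The positions of the ends within each gene played no part in the choice.

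The libraries came from whole liver, brain, lung, kidney, ovary and spleen of adult BALB-c mice, with 1 library per tissue and no treatment named. Parallel analysis of RNA ends (PARE) ligates an adaptor to polyadenylated RNA that carries a 5' monophosphate and sequences about 20 bases from that end. No tissue had a replicate, and ratios and shares carry exact 95% intervals for the error of counting alone, because amplified reads need not come from separate molecules. How many animals each library drew on was not stated.

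Apolipoproteins are the protein part of lipoproteins, the particles that carry cholesterol and triglycerides in blood, and most of them are secreted by hepatocytes. Capped mRNA is closed to the adaptor, whereas decapped mRNA, the products of endonucleases and the intermediates of 5' to 3' decay can be ligated. A tag level therefore reflects RNA with an open 5' end, not the amount of intact mRNA.

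The sequences around 2 landmarks of each mRNA are shown first, because the positions of the ends are described against them. They were read from overlapping tags and are written 5' to 3' on the strand of the gene. Capitals mark the hexamer AATAAA, the canonical poly(A) signal that precedes the site of cleavage and polyadenylation. It occurred once in the block with most tags of each of the 4 genes. Whether it was the signal used was not tested.

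Apoa1 (chr9:46038516-46038545, plus): tggctttcttacAATAAAcctttccaaaat
Apoa2 (chr1:173156471-173156500, plus): cctgttttctccAATAAAtgcggaaggagt
Apoe (chr7:20281622-20281651, minus): tggcccttgcttAATAAAgattctccgagc
Apoh (chr11:108275672-108275701, plus): ctgaaatagcagAATAAAgttactggattg

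The reading frame was taken from the same overlapping tags, as the frame without a stop codon over a stretch at least 3 times as long as in any other. In the following sequences capitals mark the stop codon that ended it, which lay 42 nt before the hexamer in Apoa1, 85 nt in Apoa2 and 89 nt in Apoe, counted between them. For Apoh the longest such stretch was only 2.41 times as long as the next, and no stop codon was assigned.

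Apoa1 (chr9:46038468-46038497, plus): actctgactgcccagTGAggtgcccgcttc
Apoa2 (chr1:173156380-173156409, plus): gctcctgcggctaagTGAgatgtgccaggc
Apoe (chr7:20281717-20281746, minus): gcccaggagaatcaaTGAgtatccttctcc

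Unique tags numbered 78952 in liver, 33382 in brain, 493121 in lung, 162270 in kidney, 29213 in ovary and 42939 in spleen. Levels are tags per 1000000 unique tags of the library (CPM). A count of 0 allowed up to 38.0 CPM in liver, 89.9 in brain, 6.08 in lung, 18.5 in kidney, 102.7 in ovary and 69.9 in spleen, at 3 counts each. The tissues could be checked against marker genes only through tags in the first 31 bases of RefSeq transcripts (GRCm38.p6). There Kap, an androgen-regulated gene of kidney proximal tubule, had 998 tags in kidney, 135 in lung and at most 3 in any other library. Sftpa1, a surfactant protein of alveolar type II cells, had 23 tags in lung and none elsewhere. None of the 6 hepatocyte markers with such a stretch had a tag there in any library, nor had any neuron and myelin, ovary or spleen lymphoid marker. This check says nothing of the liver, brain, ovary and spleen libraries.

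Together the 4 genes held 4.38% of the liver tags (interval 4.24 to 4.53). They held 0.171% of the brain tags, 0.193% of lung, 0.294% of kidney, 0.103% of ovary and 0.247% of spleen.

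Apoa1 encodes the main protein of high-density lipoprotein (HDL), which activates the enzyme that esterifies cholesterol in plasma. It had 323 tags in liver, against 0 in brain, 57 in lung, 39 in kidney, 1 in ovary and 1 in spleen. These were 4091 CPM in liver (interval 3657 to 4562), against 0 CPM in brain, 115.6 in lung, 240.3 in kidney, 34.2 in ovary and 23.3 in spleen. Liver stood apart from all the others, and brain had no tag. The ratio of liver was 17.0 over kidney (interval 12.2 to 24.4), 35.4 over lung (26.6 to 47.8) and at least 45.5 over brain. Ovary and spleen, with 1 tag each, gave ratios of 119.5 (21.3 to 4735) and 175.7 (31.3 to 6960). Kidney exceeded lung 2.08-fold (1.35 to 3.18), while lung, ovary and spleen could not be ordered beyond counting error. With depths set by a trimmed mean of M values, which scales each library by the windows it shares with the others, kidney over lung was 1.44 (0.933 to 2.20), no longer beyond counting error. With the same depths lung over ovary was 8.87 (1.53 to 356.5), beyond counting error, although ovary had 1 tag.

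Apoa2, a small protein that is the second most abundant one of HDL, had 788 tags in liver. It had 0 in brain, 103 in lung, 81 in kidney, 0 in ovary and 12 in spleen. The levels were 9981 CPM in liver (interval 9296 to 10703), against 208.9 in lung, 499.2 in kidney and 279.5 in spleen. Liver was again clear of the rest. The ratio was 20.0 over kidney (15.9 to 25.45), 35.7 over spleen (20.3 to 69.4) and 47.8 over lung (38.9 to 59.3), and at least 111.1 over brain and 97.2 over ovary. Counted by distinct ends, the ratio was 8.81 over kidney, 11.01 over spleen and 18.6 over lung, and at least 40.2 over brain and 34.1 over ovary. Neither kidney over spleen (1.79, 0.969 to 3.60) nor spleen over lung (1.34, 0.670 to 2.44) differed beyond counting error. With depths set by that trimmed mean, kidney over spleen was 2.59 (1.405 to 5.22), beyond counting error.

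Apoe is a ligand of the low-density lipoprotein receptor family, and macrophages and astrocytes make it as well as hepatocytes. It was the one member with tags in all 6 libraries, with 2120 in liver, 57 in brain, 747 in lung, 334 in kidney, 29 in ovary and 92 in spleen. The levels were 26852 CPM in liver (interval 25721 to 28020), 1708 in brain, 1515 in lung, 2058 in kidney, 992.7 in ovary and 2143 in spleen. Every other library lay below liver, with ovary lowest. The ratio of liver was 12.5 over spleen (10.2 to 15.6), 13.05 over kidney (11.6 to 14.7), 15.7 over brain (12.1 to 20.8), 17.7 over lung (16.3 to 19.3) and 27.05 over ovary (18.8 to 40.5). In order of level, spleen over kidney (1.04), kidney over brain (1.21) and brain over lung (1.13) had intervals that included 1, and lung exceeded ovary 1.53-fold (1.05 to 2.30). This order depended on scaling. With depths set by a trimmed mean of M values, liver was 13.4-fold over lung and 19.9-fold over spleen, and brain over lung turned to 0.390 (0.293 to 0.511), spleen over kidney to 0.718 (0.563 to 0.906). With the same scaling kidney over brain was 2.41 (1.82 to 3.25), and lung over ovary was 4.01 (2.77 to 6.03). Of 5 macrophage markers with a RefSeq start stretch, Lyz2 had 3 tags there, all in lung, and none of 5 astrocyte markers had one, so the part of these cells in the Apoe levels was not tested. In whole tissue, fewer cells of a type and less RNA per cell cannot be told apart.

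Apoh, also called beta-2-glycoprotein I, is a phospholipid-binding plasma protein made mostly by hepatocytes. It had 229 tags in liver, against 0 in brain, 43 in lung, 23 in kidney, 0 in ovary and 1 in spleen. The levels were 2900 CPM in liver (interval 2537 to 3301), 87.2 in lung, 141.7 in kidney and 23.3 in spleen. The pattern was that of Apoa1 and Apoa2, high in liver and low or without a tag elsewhere. The ratio of liver was 20.5 over kidney (13.3 to 32.9), 33.3 over lung (23.9 to 47.2), 124.5 over the 1 spleen tag (22.1 to 4940) and at least 32.3 over brain and 28.2 over ovary. Kidney over lung was 1.63 (0.935 to 2.76). Lung over the 1 spleen tag was 3.74 (0.637 to 151.3), and 7.84 (1.33 to 316.9) with depths set by the trimmed mean.

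**Figure D1:**
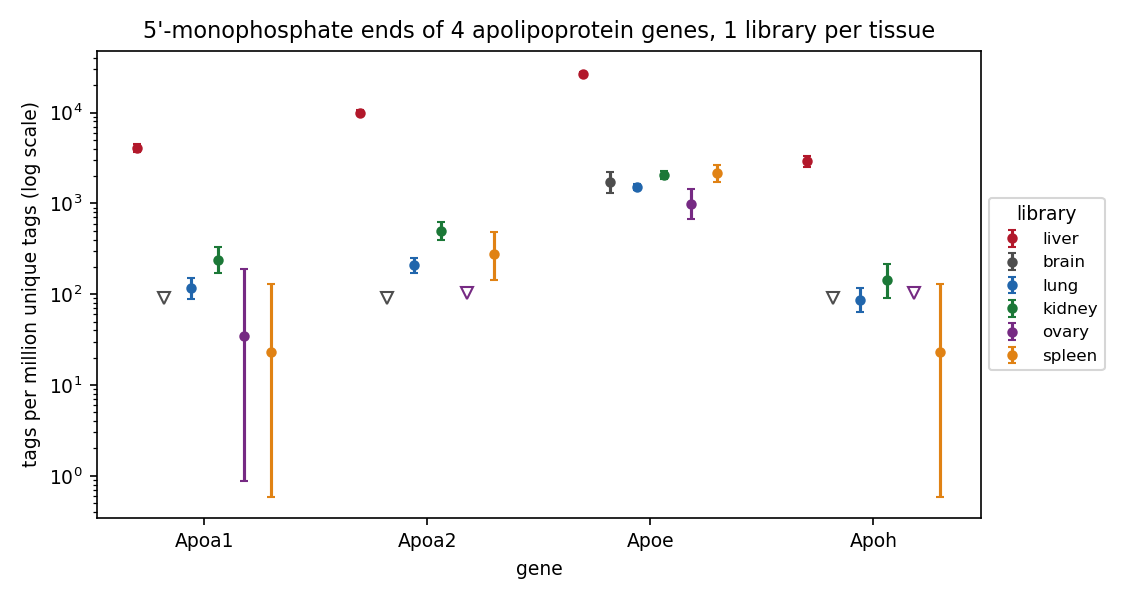
Tags per 1000000 unique tags (log axis) of each gene in each library, with exact 95% Poisson intervals; open triangles stand for libraries without a tag and are drawn at the level of 3 counts. Liver lies above all other libraries for each gene, at 2900 to 26852 CPM, and Apoe is the one gene between 992.7 and 2143 CPM in the other 5.

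All 4 genes were past 4-fold in liver over each of the other 5 libraries. Among 2 kb windows with at least 20 tags in the pair of libraries, 44.3% were past 4-fold in liver over brain, 7.86% over lung, 16.7% over kidney, 37.6% over ovary and 40.4% over spleen. Since the genes were chosen by their liver level, nothing is read from their number. Counted by distinct ends in place of tags, Apoe was 3.78-fold over brain and 3.02-fold over spleen, so that 3 of the 4 genes were past 4-fold there. By that count Apoe was 4.91-fold over kidney, 5.61-fold over ovary and 9.79-fold over lung, Apoa1 21.7-fold over lung and Apoh 20.3-fold over lung. Apoe had 8.19 tags per distinct end in liver, 1.36 in brain, 4.76 in lung, 2.67 in kidney, 1.21 in ovary and 1.92 in spleen. It had 259 distinct ends in liver, 42 in brain, 157 in lung, 125 in kidney, 24 in ovary and 48 in spleen.

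The makeup of the apolipoprotein tags follows from the levels that chose the genes and is given as a description. Shares are set side by side between libraries, not between genes, because the number of ends a gene can give depends on its length. Apoe made up 61.3% of the tags of the 4 genes in liver (interval 59.6 to 62.9), 100% of 57 in brain, 78.6% in lung (75.9 to 81.2), 70.0% in kidney (65.7 to 74.1), 96.7% of 30 in ovary and 86.8% in spleen (78.8 to 92.6). The share was lowest in liver. By distinct ends it was 33.4% in liver, 50.6% in lung, 53.9% in kidney and 80.0% of 60 ends in spleen, so that the order of lung and kidney depended on counting tags or ends. For each Apoa1 tag there were 6.56 Apoe tags in liver, against 13.1 in lung and 8.56 in kidney. Relative to liver this was 1.996 in lung (1.48 to 2.73) and 1.305 in kidney (0.913 to 1.91), the latter with an interval that included 1. For each Apoa2 tag there were 2.69 Apoe tags in liver, against 7.25 in lung and 4.12 in kidney. Relative to liver this was 2.695 in lung (2.15 to 3.40) and 1.53 in kidney (1.18 to 2.01).

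**Figure D2:**
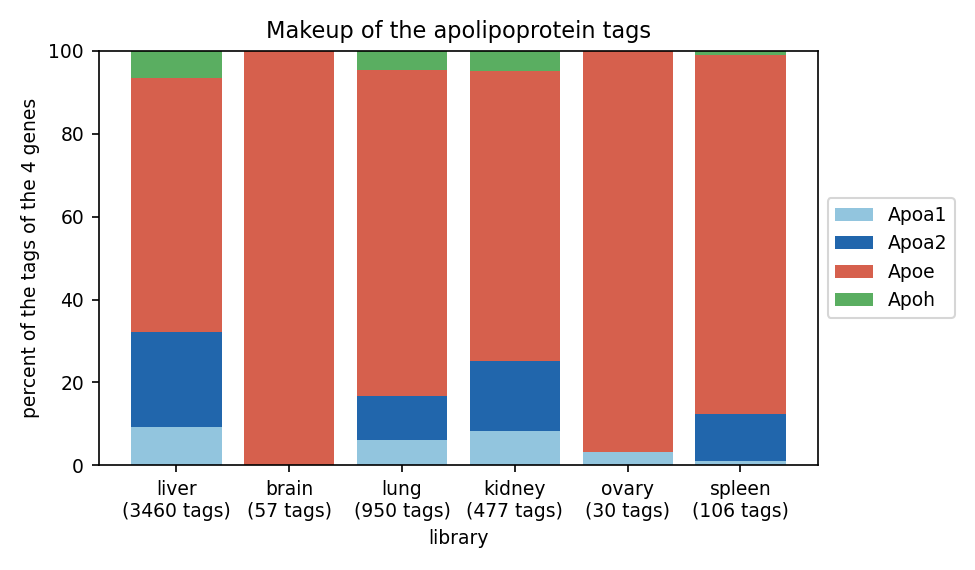
Percent of the tags of the 4 genes that belong to each gene, by library, with the number of tags under each bar. Apoe takes 61.3% in liver and 70.0 to 100% in the other libraries, and Apoa2 takes 22.8% in liver, 10.8% in lung, 17.0% in kidney and 11.3% in spleen.

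Tags of each gene fell into blocks separated by stretches without tags of more than 30 nt, and the block with most tags, which lay at the 3' side in each gene, is called the 3' block here. It spanned chr9:46037904-46038548 in Apoa1, chr1:173156278-173156509 in Apoa2, chr7:20281592-20282230 in Apoe and chr11:108275555-108275709 in Apoh. It held 92.4% of the Apoa1 tags over the 6 libraries, 79.5% of Apoa2, 99.1% of Apoe and 53.0% of Apoh. Apoh thus had the ends most spread along its window, with 25.0% of the tags in the block before (chr11:108273324-108273505) and 11.1% in the block before that (chr11:108270445-108270624). Whether blocks equal exons was not analysed here.

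Within the 3' block the genes differed in where the ends lay. In liver, 11.1% of the Apoa1 tags began at or after the stop codon (interval 7.93 to 15.1), against 58.5% of Apoa2 (55.0 to 62.0) and 76.5% of Apoe (74.7 to 78.3). Most Apoa1 ends (80.2%) lay in the open reading frame of the block. That frame took 579 of the 645 nt of the block in Apoa1, 117 of 232 in Apoa2 and 498 of 639 in Apoe. The part of these lengths in the differences between genes was not tested. The median end lay 128 nt before the hexamer in Apoa1, 4 nt in Apoa2, 60 nt in Apoe and 46 nt in Apoh, over the liver tags of the block. These distances run over blocks of unequal length, from 155 nt in Apoh to 645 nt in Apoa1.

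The ends that held most tags are shown next, with the first 20 bases of the tag in capitals and the 10 bases before it in lower case. For Apoe the strongest end of each library is given, since its position differed. These ends held 106 tags in liver, 7 in brain, 42 in lung, 30 in kidney, 3 in ovary and 9 in spleen. The next strongest held 99, 3, 39, 24, 2 and 7 tags in the same order. Whether the strongest end differed between libraries beyond counting error was not tested.

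Apoa1, liver, position 46038515: cacccccgcaTTGGCTTTCTTACAATAAAC
Apoa2, liver, position 173156482: ctgttttctcCAATAAATGCGGAAGGAGTT
Apoe, liver, position 20281731: ggagaatcaaTGAGTATCCTTCTCCTGTCC
Apoe, brain, position 20281679: caggtggcccTGTCTCAAGCACCTCTCTGG
Apoe, lung, position 20281666: ctcaagcaccTCTCTGGCCCTCTGGTGGCC
Apoe, kidney, position 20281701: tgcaacaacaTCCATATCCAGCCAGGTGGC
Apoe, ovary, position 20281639: gcccttgcttAATAAAGATTCTCCGAGCAC
Apoe, spleen, position 20281645: ctggtggcccTTGCTTAATAAAGATTCTCC
Apoh, 6 liver tags, position 108275639: attgaatgtcGTATTTGTATTTCTGCTTGT

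Apoa2 ends in liver and lung were concentrated at the hexamer itself. Its strongest end, 1 nt before the first base of the hexamer, held 93 tags in liver, 8 in lung, 2 in kidney and 1 in spleen, 10.6% of the tags of the gene. The strongest end was 173156483 in lung (9 tags), 173156481 in kidney (5) and 173156312 in spleen (2), the last of these 171 nt before the hexamer. The next ends by number of tags lay within 3 nt of it, at positions 173156483 (66 tags over the libraries), 173156481 (63), 173156480 (50) and 173156485 (41). A stretch of 10 nt, chr1:173156477-173156486, held 342 of the 788 liver tags (43.4%, interval 39.9 to 46.9). It held 36 of 103 in lung (35.0%) and 16 of 81 in kidney (19.8%). The odds of an end in this stretch were 3.11 times as high in liver as in kidney (1.74 to 5.87), and 1.43 times as high as in lung, with an interval that included 1 (0.913 to 2.26). The stretch was chosen as the densest one in liver, which favours liver.

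**Figure D3:**
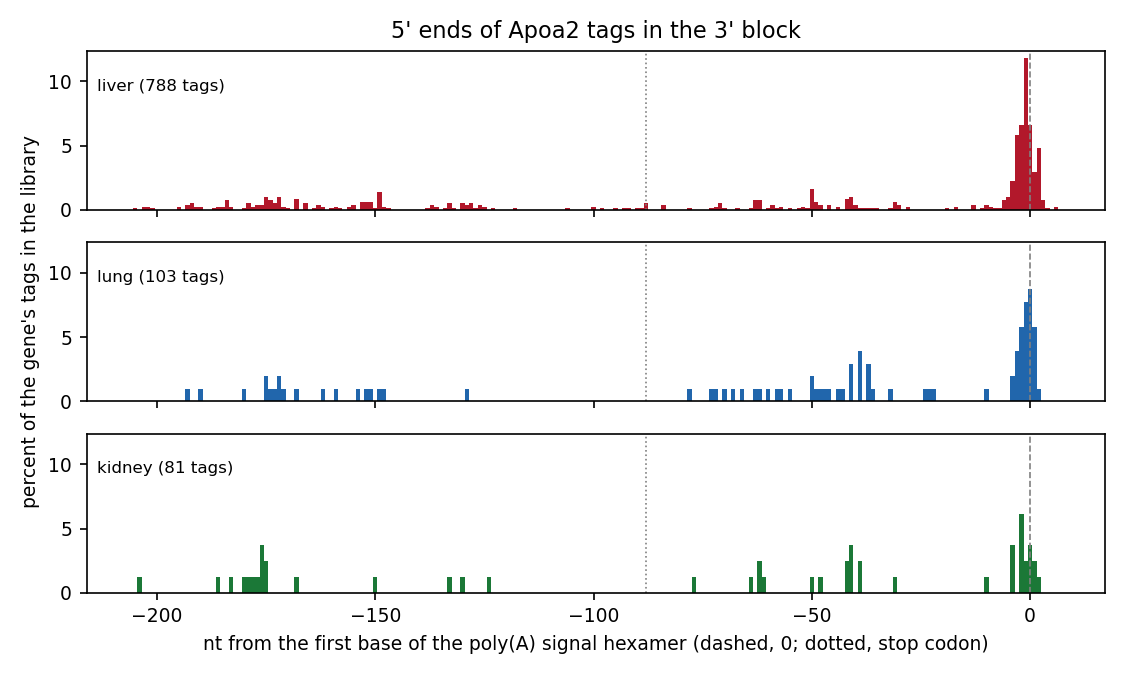
Percent of the Apoa2 tags of a library that begin at each base of the 3' block, against the distance in nt from the first base of the hexamer (dashed line, 0; dotted line, stop codon), in liver, lung and kidney. The highest bars stand within 3 nt of the hexamer in all 3 libraries, with 11.8% of the liver tags at the strongest end.

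Fewer of the Apoa2 tags lay upstream in liver than in kidney. Before the 3' block lay 19.9% of the liver tags (interval 17.2 to 22.9), against 39.5% of the kidney tags (28.8 to 51.0) and 11.7% of the lung tags. The odds for liver relative to kidney were 0.382 (0.231 to 0.638). Spleen had 12 tags of the gene, of which 1 lay there. The liver count includes 1 tag that lay after the block. Counted by distinct ends, the 3' block held 120 of 197 ends in liver and 31 of 53 in kidney, which are close shares. The difference between liver and kidney thus depended on counting tags.

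Apoe ends were spread over several narrow clusters between the stop codon and the hexamer, and the libraries differed in which was highest. The strongest end in liver lay exactly on the first base of the stop codon and held 106 liver tags, or 5.0% of the gene's liver tags (interval 4.11 to 6.02). It held 0 tags in brain, 11 in lung (1.47%, 0.737 to 2.62), 13 in kidney (3.89%, 2.09 to 6.56), 1 in ovary and 1 in spleen. Of these libraries, lung had a share whose interval lay wholly below that of liver. Over the 6 libraries together the end with most tags was 20281702, 29 nt after the first base of the stop codon. It held 99 tags in liver, 3 in brain, 26 in lung, 24 in kidney, 2 in ovary and 1 in spleen.

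The densest 10 nt of Apoe began at different distances from the hexamer in the libraries, although those of liver and kidney overlapped. In liver they began 65 nt before it (chr7:20281695-20281704) and held 17.2% of the tags of the gene in liver, 8.77% in brain, 13.9% in lung, 2.17% in spleen, 24.6% in kidney and 13.8% in ovary. In lung they began 32 nt before it (chr7:20281662-20281671), with 12.3% of the tags in liver (interval 10.9 to 13.8), against 21.2% in lung (18.3 to 24.3). In kidney they began 69 nt before it (chr7:20281699-20281708), with 15.9% of the tags in liver (14.4 to 17.5), against 25.1% in kidney (20.6 to 30.2). In spleen they began 8 nt before it (chr7:20281638-20281647), with 15.1% of the tags in liver (13.6 to 16.7), against 40.2% in spleen (30.1 to 51.0). These stretches were chosen as the densest in each library, which favours the library that chose them.

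**Figure D4:**
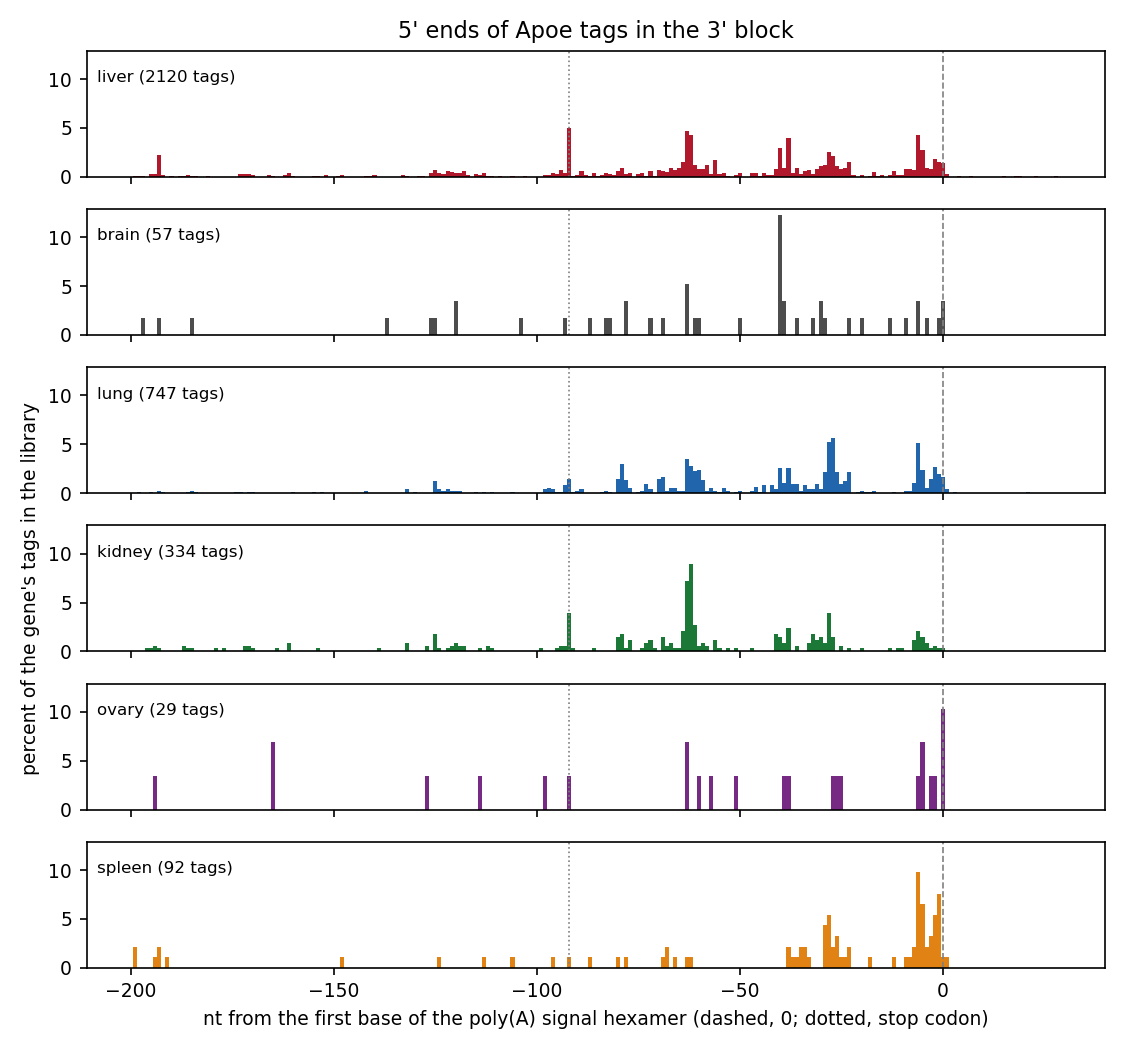
Percent of the Apoe tags of a library that begin at each base from 200 nt before to 30 nt after the first base of the hexamer (dashed line, 0; dotted line, stop codon), with the number of tags of the gene. Clusters recur at like distances in liver, lung and kidney, with the highest bar on the stop codon in liver, 27 nt before the hexamer in lung, 62 nt before it in kidney and 6 nt before it in spleen.

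Ends within 10 nt of the hexamer allow one measure for all genes. In Apoe they made up 16.2% of the liver tags (interval 14.7 to 17.9), 12.3% of brain (5.08 to 23.7), 17.9% of lung (15.3 to 20.9), 7.49% of kidney (4.90 to 10.85), 27.6% of ovary (12.7 to 47.2) and 41.3% of spleen. The odds in liver were 0.276 times those in spleen (0.176 to 0.436) and 2.39 times those in kidney (1.56 to 3.82), and those over brain, lung and ovary had intervals that included 1. In Apoa2 the share was 44.7% in liver (41.2 to 48.2), 35.9% in lung (26.7 to 46.0) and 21.0% in kidney (12.7 to 31.5). The odds in liver were 3.04 times those in kidney (1.72 to 5.63). With each distinct end counted once, liver fell below kidney in both genes, with 5.41% in liver and 7.20% in kidney for Apoe, and 8.12% in liver and 13.2% in kidney for Apoa2. That count can depend on depth, since the few positions within 10 nt count once however many tags they hold. Liver had 788 Apoa2 tags against 81 in kidney, and 2120 Apoe tags against 334. The part of depth in the reversed order was not tested. Apoa1 had 1.55% of its liver tags within 10 nt of the hexamer and none in lung or kidney, and Apoh had 9.61% of its liver tags, 9.30% of its lung tags and none of 23 in kidney.

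A related measure could be taken over whole libraries, without a placed hexamer. Of all unique tags, those with AATAAA in their first 20 bases made up 9.69% in liver, 4.37% in brain, 8.78% in lung, 2.28% in kidney, 3.87% in ovary and 38.0% in spleen. For Apoe this share was 16.6% in liver, 14.0% in brain, 17.4% in lung, 8.08% in kidney, 27.6% in ovary and 41.3% in spleen. By this count spleen was highest and kidney lowest both for Apoe and over all tags. With each listed tag counted once, kidney was no longer lowest for Apoe, at 7.19% in liver, 14.3% in brain, 8.77% in lung, 8.81% in kidney, 20.0% in ovary and 24.6% in spleen. For Apoa2 it was 36.2% in liver, 29.1% in lung and 17.3% in kidney, above the whole library in each. Apoa1 lay below the whole library in liver, with 4.64% (2.62 to 7.54). In lung it had 1 of 57 tags, or 1.75% (0.0444 to 9.39), an interval that included the share of the lung library. The part of the library-wide difference in the differences between tissues of single genes was not tested.

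**Figure D5:**
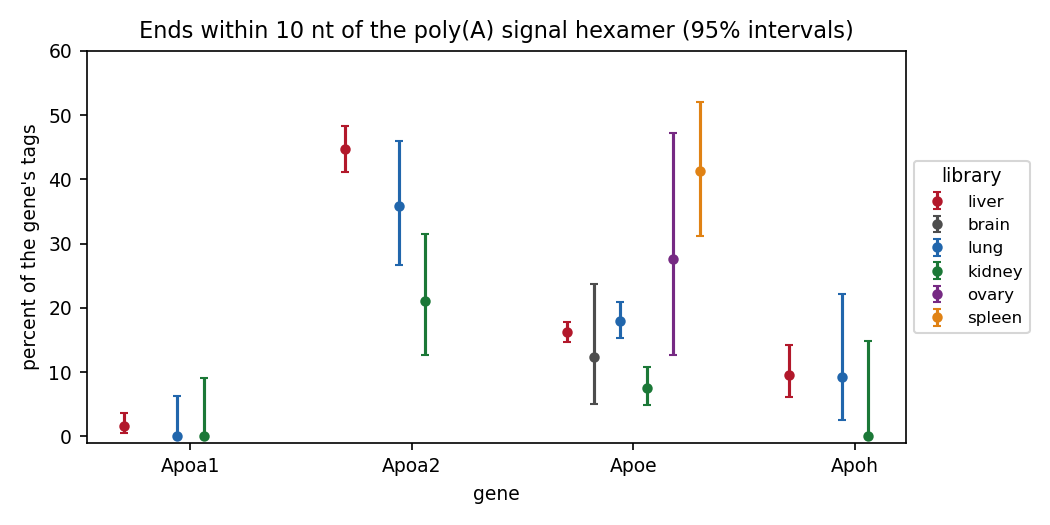
Percent of the tags of each gene that begin within 10 nt of the hexamer, by library with at least 20 tags of the gene, with exact 95% intervals. Apoa2 is highest in liver at 44.7% and Apoe is highest in spleen at 41.3%, while kidney is below liver for both genes when tags are counted.

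The exact bases at which the tags began were compared between tissues, and most distinct ends of Apoa1 (170 of 211), Apoa2 (139 of 219) and Apoh (155 of 178) were found in 1 library, against 128 of 305 for Apoe. These 3 genes had 421, 984 and 296 tags over the 6 libraries, against 3379 for Apoe. Genes were not compared at equal numbers of tags, so nothing is read from this difference. Of the Apoe ends, 88.1% in brain, 82.8% in lung, 84.8% in kidney, 93.8% in spleen and 91.7% in ovary were also ends in liver, and these held 91.2 to 96.7% of the tags of each library. Seen from liver, 14.3% of its 259 Apoe ends recurred in brain, 50.2% in lung, 40.9% in kidney, 8.49% in ovary and 17.4% in spleen. Liver ends occupied 37.4% of the positions of the Apoe 3' block, and an overlap by position alone was not computed. For Apoa2, 82.5% of the lung ends and 81.1% of the kidney ends were ends in liver. For Apoa1 the shares were 61.2% and 62.5%, and for Apoh, with the fewest tags, 41.5% and 36.4%. In all, 3 of the 305 Apoe ends were present in all 6 libraries, and no end of the other genes was found in more than 4.

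Apoa1 and Apoh had no dominant end. The strongest Apoa1 ends, 46038393 and 46038515, held 12 tags each over the 6 libraries (2.85%). The end at 46038515 had 11 tags in liver, 1 in lung and 0 in kidney, whereas that at 46038393 had 5 in liver, 3 in lung and 4 in kidney. The other Apoa1 ends of highest count were 46038442 (11 tags), 46038451 (11) and 46038392 (9). No Apoh end held more than 7 tags. Those with 7 were 108270518, 108275620, 108275639 and 108275641, and 108275557 and 108275619 held 6. The strongest Apoh end in lung, 108273475, held 2 lung tags and 2 liver tags.

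Ends in the open reading frames were compared with the 3 positions of a codon, because 5' to 3' decay that follows the last ribosome is known to leave ends in one codon frame. Over Apoa1, Apoa2 and Apoe, liver ends fell on codon base 1 in 29.4% of 905 tags, on base 2 in 40% (interval 36.8 to 43.3) and on base 3 in 30.6%, against 33.3% each for an even spread. Without the strongest coding end of each gene, base 2 held 36.4% (33.1 to 39.7), an interval that included the even share. With each distinct end counted once, base 2 held 39.1% of 348 liver ends (33.9 to 44.4), an interval that did not include it. In lung the shares were 36.6, 32.5 and 30.9% of 191 tags, and in kidney 31.3, 34.0 and 34.7% of 150, all with intervals that included 33.3%. By gene, base 2 held 40.9% in Apoa1, 31.8% in Apoa2 and 42.4% in Apoe of the liver tags.

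The bases at the ends were not those of the blocks at large. In liver, G was the first base of 9.97% of the Apoa1 tags, 4.60% of Apoa2, 5.34% of Apoe and 9.45% of Apoh in the 3' block. G stood at 30.0, 22.2, 31.2 and 20.7% of the positions of these blocks. The base before the end was C in 45.7% of the Apoa1 tags, 50.3% of Apoa2, 41.7% of Apoe and 29.1% of Apoh, against 28.7, 32.1, 30.5 and 19.3% of the positions. Both departures went the same way in all 4 genes. Counted by distinct ends both were smaller in each of the 4 genes, with G first at 15.03, 15.1, 11.4 and 9.84% of the liver ends and C before 43.1, 42.0, 37.3 and 19.7%, the last of these, for Apoh, close to the share of positions. G was also an uncommon first base over whole libraries, at 10.5% in liver, 8.35% in brain, 10.1% in lung, 9.27% in kidney, 9.86% in ovary and 7.79% in spleen. Base preferences of the adaptor ligation were not tested.

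Few tags matched the RefSeq starts of the transcripts. None of the 4 genes had a tag within the first 31 bases of its RefSeq transcript. The first block of Apoa2 tags began at position 173155224 with 4 kidney tags and 1 liver tag whose first 11 bases matched the end of the RefSeq start stretch. A single Apoe tag, in kidney at position 20283839, matched the 250 bases before the RefSeq start. Upstream of that tag on the strand of Apoe lay 3 liver tags (chr7:20284362-20284433). The RefSeq start used for Apoe therefore lay inside the tagged span. Its first 31 bases say nothing of an Apoe start further upstream. Of 27 other genes of lipoprotein metabolism, 18 had a RefSeq start stretch, and 2 had a tag in its first bases: Apoc4, a minor apolipoprotein of triglyceride-rich lipoproteins, with 1 in kidney, and Apom, an HDL protein that carries sphingosine-1-phosphate, with 1 in spleen. In the 250 bases before the RefSeq start, Apoc2, an activator of lipoprotein lipase, had 35 tags in liver, 8 in lung, 3 in kidney and 1 each in spleen and ovary. Lcat, the enzyme that esterifies cholesterol in plasma, had 1 in liver, 1 in brain, 11 in lung and 1 in kidney there. Tags before a RefSeq start lie outside that transcript, and which gene they came from was not tested. No tag was matched to the stretches of the other genes of the list.

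In RefSeq the genes next to Apoe on one side are Apoc1, Apoc4 and Apoc2, and those next to Apoa1 are Apoc3, Apoa4 and Apoa5, further apolipoproteins of triglyceride-rich particles and HDL. Within 50000 nt of the windows, 16 clusters of at least 10 tags were found, 4 beside Apoa1, 6 beside Apoa2 and 6 beside Apoe. They are given by position because no mm9 annotation was used to name them, and those on the side of the named apolipoproteins are described first. On the strand of Apoe, chr7:20274849-20274982 held 555 tags in liver, 2 in brain, 107 in lung, 32 in kidney, 3 in ovary and 16 in spleen. The ratio of liver was 32.4 over lung (interval 26.3 to 40.2) and 35.7 over kidney (25.0 to 52.6), above the 17.7 and 13.05 of Apoe itself. Further clusters on that side held 77 liver tags (chr7:20262082-20264089), 55 (chr7:20277257-20277987) and 8 (chr7:20266681-20266795). Liver exceeded kidney 19.8-fold in the first of these (9.55 to 47.45) and 16.2-fold in the next (7.33 to 42.0).

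Beside Apoa1, chr9:46040633-46043375 on the minus strand held 330 tags in liver, 0 in brain, 46 in lung, 24 in kidney, 1 in ovary and 9 in spleen. The ratio of liver was 44.8 over lung (32.8 to 62.4) and 28.3 over kidney (18.7 to 44.7). On the plus strand, chr9:46077181-46079959 held 487 tags in liver, 0 in brain, 48 in lung, 74 in kidney, 1 in ovary and 3 in spleen, with ratios of 63.4 over lung (47.0 to 87.1) and 13.5 over kidney (10.6 to 17.5). A smaller cluster, chr9:46049565-46051520, held 23 tags in liver, 2 in lung and 10 in kidney. On the other side of Apoa1 and Apoe the clusters had no such excess in liver. Beside Apoa1, chr9:46031645-46032250 plus had 5 tags in liver (63.3 CPM), 18 in lung (36.5) and 8 in kidney (49.3). Beside Apoe, chr7:20302017-20302966 had 1 tag in liver (12.7 CPM) and 24 in lung (48.7). The cluster chr7:20309565-20310220 had 5 tags in liver (63.3 CPM), 29 in lung (58.8) and 5 in kidney (30.8). Beside Apoa2 the cluster with most tags, chr1:173159724-173160219 on the minus strand, had 12 tags in liver, 126 in lung, 22 in spleen, 3 in kidney and 1 in ovary. Its levels were 152 CPM in liver, 255.5 in lung and 512.4 in spleen, with liver over lung at 0.595 (0.299 to 1.08). This pattern was unlike that of Apoa2, although liver was 8.22-fold over kidney (2.22 to 45.4). A smaller cluster there, chr1:173147328-173148947 plus, had 14 tags in liver and 0 in each other library. The remaining clusters beside Apoa2 had 0 to 14 liver tags, against 2 to 46 in lung. In levels these were 0 to 177.3 CPM in liver, against 4.06 to 93.3 in lung. In the one with most tags, chr1:173165015-173169481 minus, liver over lung was 1.90 (0.965 to 3.52).

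The windows with the most similar spread of CPM over the 6 libraries were taken from 2561 windows of 2 kb with at least 50 tags, by the summed absolute difference of the shares. The closest to Apoa1 and to Apoh was the same window, chr7:13572001-13574000 minus, with 98 tags in liver, 17 in lung, 10 in kidney and 1 in spleen (differences 0.0320 and 0.0201). The window chrX:20138001-20140000 plus was also named for both genes, and the remaining one for Apoa1 was chr9:46078001-46080000 plus, within a cluster described above. The remaining one for Apoh was chr17:35610001-35612000 plus. The closest to Apoa2 were chr4:19956001-19958000, chr3:82818001-82820000 and chr14:41936001-41938000, all plus, with differences of 0.00936 to 0.0159. The nearest windows to Apoe were less close: chr11:83566001-83568000, chr8:121970001-121972000 and chr18:20824001-20826000, all plus, which differed by 0.0508, 0.101 and 0.130. These windows were picked for their likeness, and what they encode was not analysed here.

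The windows captured the ends of the genes on their strand. A single tag, in liver, lay on the opposite strand, in the Apoa1 window. Just outside the windows lay 1 liver tag for Apoa1, 1 lung tag and 2 spleen tags for Apoe and 2 lung tags for Apoh. In liver, 4 tags of the 4 windows were listed at a second location and were left out.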

How the data were processed

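Each library was 1 deposited table of aligned tags. Per the labels' protocols, a 5' adaptor was ligated to polyadenylated RNA, MmeI cut tags next to it, and the tissues were barcoded and amplified by PCR. Alignment used Bowtie and build mm9, per the submitters' processing notes, and the Bowtie version is not given in the sources used here. The authors wrote the read count of each tag into its name, and these counts were used. The deposited score column is a display density and was not used as a measurement. The 5' end is the first base on the plus strand and the last on the minus strand. Tags listed at 2 locations were left out, and levels are counts per 1000000 unique tags.

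The members, gene lists and marker lists were chosen with earlier results of these data known. With 1 library per tissue no test was made. Intervals are exact Poisson, Clopper-Pearson or conditional binomial ones at 95%, computed with Python 3.11.15, NumPy 2.4.6, SciPy 1.17.1 and Matplotlib 3.10.9. A count of 0 was taken to allow 3. The ratio calculation was tested on simulated data. The trimmed mean of M values was computed in Python over 2 kb windows.

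The reading frames were to come from protein sequences. None were used here, and the open frame of overlapping tags took their place, so other lipoprotein genes could not be counted along their coding sequence. Gene starts were matched to RefSeq stretches of GRCm38.p6 over 20 bases, or fewer at their end. The text names the 4 genes in every library, the 5 ends with most tags per gene, the strongest end of each library with at least 10 tags of the gene, and the 3 most similar windows per gene. It was also to name lipoprotein genes with at least 10 coding tags and to compare Alb, Trf, Ahsg and Fgb, which were not located here. The frame rule, the distance of 10 nt from the hexamer, the densest stretches, the clusters beside the genes and the matches to transcript starts were chosen after the data had been seen.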

Additional observations from a re-analysis of the deposited data

How the results depend on the processing

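No paired analysis was possible because each tissue has 1 library. No ratio of liver over another library changed direction under any alternative run. Of the 20, 15 have an interval and 5, over libraries without a tag, are lower bounds, which were held against the counting interval of the liver tags. All 20 stayed within these ranges with all listed tags, with the depth taken without the 10 strongest ends, and with the windows cut to the span of the liver ends. With each distinct end counted once, 10 of the 15 ratios and 4 of the 5 bounds moved out, and the ratio was 8.81 for Apoa2 over kidney and 3.02 for Apoe over spleen. With the trimmed mean of M values 5 ratios and 5 bounds moved, and Apoe over spleen was 19.9. From coding ends alone 6 ratios and 3 bounds moved, with Apoe over spleen at 17.3, and Apoh gave no value because it had no assigned frame. The share of liver coding ends on codon base 2 was 36.4% without the strongest coding end of each gene, and 39.1% with each distinct end counted once. Alternatives for the share of ends within 10 nt of the hexamer were added after seeing the data. With distinct ends counted once it was 8.12% for Apoa2 in liver against 13.2% in kidney, and 5.41% for Apoe in liver against 7.20% in kidney and 22.9% in spleen, so that liver was below kidney in both genes, the reverse of the order by tags. A base near the hexamer counts once however many tags it holds, and the part of depth in this reversal was not tested. Without the strongest end of the gene in that library the share by tags was 37.3% for Apoa2 in liver and 15.8% in kidney. Depth limits brain and ovary most, where 3 counts are 89.9 and 102.7 CPM.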
